A study of Mus musculus with 20 samples.

Results

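CD8+ T cells stimulated for 90 min with IL-2-REH, a partial agonist of the IL-2 receptor, were compared with unstimulated CD8+ T cells. The comparison rests on 2 of the 20 RNA-seq libraries of the series, the single library labelled CD8T REH 1.5h and the single library labelled CD8T 0h, and the libraries were identified by these labels. Both held RNA of CD8+ T cells from mouse spleen and lymph node, isolated with a CD8+ T cell isolation kit and not sorted. The growth protocol names C57BL/6J as the source of these cells, whereas the strain field gives C57BL/6N, and no age is given. One library had received 200 nM IL-2-REH for 90 min and the other had received no cytokine and was labelled 0 h. There was no library of cells kept for 90 min without cytokine, so the cytokine and the time in culture cannot be told apart. The series also holds CD8+ T cells given 200 nM IL-2 for 90 min or 4 hr and IL-2-REH for 4 hr (1 library each), and 15 libraries of Tregs, sorted by GFP from B6-Foxp3EGFP mice, in 3 replicates of the same 5 conditions.

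IL-2 is a growth factor of lymphocytes that is bound by IL-2Rα, IL-2Rβ and the common γ chain. The kinases JAK1 and JAK3, which sit on the latter chains, phosphorylate STAT5, and STAT5 then enters the nucleus and switches on genes such as Cish, Socs1, Bcl2 and Lta. IL-2-REH is a mutant of human IL-2 in which binding to the common γ chain is weakened, so that it signals as a partial agonist. CD8+ T cells that have not been activated carry little IL-2Rα. The comparison asks how the RNA of such cells differs after 90 min with IL-2-REH.

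The IL-2-REH library held 38201668 reads on genes and the unstimulated library 40598136, and the other 3 CD8+ libraries held between 40936747 and 45189835. Values are RPKM, that is, reads divided by exon length and by library depth, and each gene symbol is represented by its transcript with the most reads. A change is the log2 ratio of RPKM + 1, over the 10021 of 23992 genes whose RPKM averaged 1 or more across the 5 CD8+ libraries. With 1 library per group there is no replicate error and no test. Here "rose" and "fell" mean only that a gene passed a log2 ratio of 1, a change of about 2-fold, between these 2 libraries. Where an interval is given, it is the exact 95% Clopper-Pearson interval of the log2 ratio of reads per mapped read, and it covers counting error only. In genes with low expression that ratio exceeds the log2 ratio of RPKM + 1, since the added 1 RPKM shrinks the latter. As a guide to how far libraries of a group can differ, the within-group SD of log2(RPKM + 1) in the Treg groups was used. Its median was 0.31 over these genes, 0.44 over those that rose in CD8+ T cells and 0.43 over those that fell. Over the genes with a CD8+ log2 ratio above 2 it was 0.62, and over those below -2 also 0.62. These are SDs of single libraries and not of differences between 2.

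Between the libraries, 247 genes rose (2.46% of those compared) and 612 fell (6.11%), which together are 859 genes (8.57%). Past a log2 ratio of 2, a change of about 4-fold, 15 genes were higher (0.15%) and 41 lower (0.409%), together 56 (0.559%). The median of all genes was shifted by -0.12, and once the ratios were centred on this median, 367 genes were above 1 and 429 below -1 (3.66% and 4.28%, together 7.94%) and 22 and 31 were past 2 (0.22% and 0.309%, together 0.529%), so the excess of decreases is smaller on that scale. The shares of 2.46% and 6.11% are the background against which the counts of genes that rose and fell in each list below are to be read, and in a short list 0 genes that rose is close to that share. The genes with the highest ratios were Pmepa1, Ramp3 and Crem, and those with the lowest were Fos, Fosb and Dtx1. Cish and Lta, which STAT5 is known to induce, lay close to the diagonal.

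**Figure D1:**
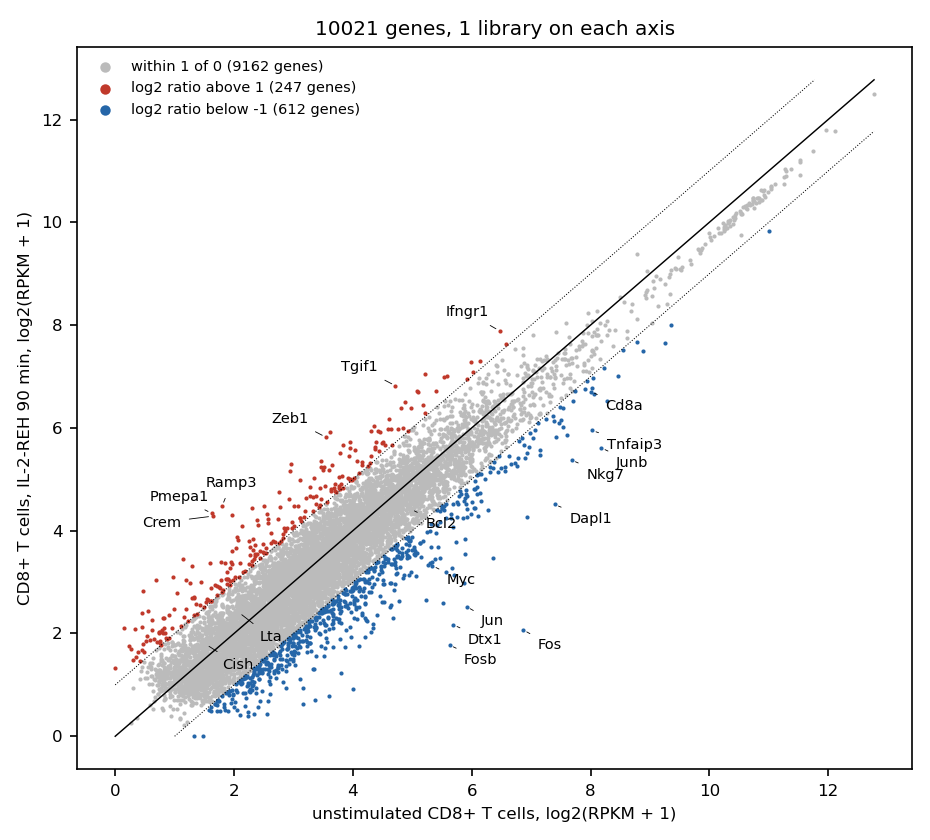
Each point is a gene, with log2(RPKM + 1) in unstimulated CD8+ T cells on the x axis and after 90 min with IL-2-REH on the y axis (1 library on each axis). The solid line marks equal values and the dotted lines a log2 ratio of 1 in either direction, past which 247 genes (red) were higher and 612 (blue) lower. Fos and Fosb lie farthest below the line, and Cish, Lta and Bcl2 lie between the dotted lines.

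Of 25 genes known as targets of STAT5 or IL-2, 24 passed the filter on low values, and 0 rose and 7 fell with IL-2-REH at 90 min (2.46% and 6.11% of all genes). Centred on the median of all genes, 0 rose and 4 fell. Lif, which encodes a cytokine of the IL-6 family, did not pass. Their median log2 ratio was -0.61, against -0.12 for all genes. With IL-2 at 90 min, 9 of the 24 were above 1 and 3 below -1 relative to the same unstimulated library (2.81% and 4.43% of all genes). At 4 hr the counts were 0 and 9 with IL-2-REH (1.78% and 4.33% of all genes) and 11 and 2 with IL-2 (1.31% and 3.4%). The unstimulated library is shared, so these are values set side by side. In the libraries of the 2 cytokines at the same dose and time, 15 of the 24 genes were lower by more than 1 with IL-2-REH than with IL-2 and 1 was higher, whereas 0.808% and 0.0599% of all genes were. With 1 library each, this difference cannot be tested.

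The promoters of Cish and Lta are shown because both genes differed strongly between the cytokines, and because both hold the palindromic motif TTCNNNGAA, the form of site that STAT factors are known to bind. The windows are taken from RefSeq (GRCm38.p6, the build of the files) and run from 250 bases before to 50 bases after the start of the gene, on the coding strand. Capitals mark the matches to the motif, which reads the same on either strand. The Cish window lies at chr9:107296409-107296708 on the plus strand and holds 2 matches, beginning at bases 1 and 12 of the transcript. The Lta window lies at chr17:35205302-35205601 on the minus strand and holds 2 matches, beginning 152 and 16 bases before the start.
Cish: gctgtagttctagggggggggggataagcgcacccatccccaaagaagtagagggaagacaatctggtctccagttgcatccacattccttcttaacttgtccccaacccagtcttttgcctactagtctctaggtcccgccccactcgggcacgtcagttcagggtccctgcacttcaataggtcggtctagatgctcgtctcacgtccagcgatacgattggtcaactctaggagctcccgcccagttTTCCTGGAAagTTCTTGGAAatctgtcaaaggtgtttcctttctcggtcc
Lta: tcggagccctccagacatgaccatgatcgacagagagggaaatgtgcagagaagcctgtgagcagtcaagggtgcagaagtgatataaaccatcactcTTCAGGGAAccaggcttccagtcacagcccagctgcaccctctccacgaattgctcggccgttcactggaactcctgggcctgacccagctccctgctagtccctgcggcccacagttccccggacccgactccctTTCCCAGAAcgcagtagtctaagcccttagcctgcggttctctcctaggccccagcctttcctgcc
Of the 25 genes of the list, 21 have at least 1 window, and a match was found for Bcl6, Cish, Gzmb, Ifng, Lta, Socs3 and Tnfrsf18, 7 genes in all. The motif is present in 9.55% of all genes with a window and in 8.61% of those compared, or in 8.3% of all 32851 windows, and Bcl6 has 2 windows. A match is a run of letters and does not show that a factor was bound.

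Cish, whose protein damps cytokine receptor signalling, was at 1.87 RPKM without cytokine, and at 90 min it reached 2.47 with the partial agonist and 30.6 with IL-2. The log2 ratio of IL-2-REH to unstimulated cells was 0.27 (interval of the read ratio 0.16 to 0.64), so Cish was above the unstimulated level by more than counting error but did not pass the threshold. At 4 hr it was 2.45 with the partial agonist and 26.1 with IL-2. The IL-2-REH libraries thus stayed near the unstimulated level at both times, and the IL-2 libraries lay far above them. Lta, which encodes the cytokine lymphotoxin alpha, was at 3.21 without cytokine, 4.33 with the partial agonist and 33.4 with IL-2 at 90 min (log2 ratio of IL-2-REH to unstimulated 0.34). Tnf, its neighbour in the TNF family, stood at 2.03, 2.55 and 14.9 RPKM in these libraries (log2 ratio 0.23). For these genes the IL-2-REH value was less than 1.5 times the unstimulated value.

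Socs1, a feedback inhibitor of JAK kinases, was at 9.25 RPKM without cytokine and at 8.76 with the partial agonist (log2 ratio -0.07, interval -0.23 to 0.07, which includes 0), and at 36.2 with IL-2. Socs2, of the same family, was at 0.557, 0.441 and 2.30 RPKM in these libraries (log2 ratio -0.11). Pim1, a kinase of lymphocyte survival, was at 57.6, 77.2 and 127.5, and Tnfrsf18, the costimulatory receptor GITR, at 19.3, 28.7 and 78.0. These last genes were higher with IL-2-REH than without cytokine by log2 ratios of 0.42 and 0.55, below the threshold. Il2ra, which encodes IL-2Rα, moved from 1.58 to 2.81 with IL-2-REH (log2 ratio 0.56) and was at 4.71 with IL-2. The 5 genes of the list with the highest IL-2-REH ratios were Bcl6, Il2ra, Tnfrsf18, Cdkn1a and Pim1, and their log2 ratios ran from 0.42 to 0.78.

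Another set of targets had less RNA with IL-2-REH than in unstimulated cells. Myc, a transcription factor of growth, fell from an RPKM of 39.4 to 8.98 (log2 ratio -2.02, interval -2.22 to -2.05), whereas it was at 32.3 with IL-2. Bcl2, a survival factor, was at 30.4 without cytokine, 20.4 with the partial agonist (log2 ratio -0.55) and 67.5 with IL-2. Bcl2l1, which encodes the survival factor BCL-XL, fell from 5.84 to 2.14 and was at 6.61 with IL-2. The cyclins Ccnd2 and Ccnd3, which drive entry into the cell cycle, fell from 70.0 to 33.3 and from 41.7 to 16.2 (log2 ratios -1.05 and -1.31), and were at 88.2 and 44.9 with IL-2. Ccnd2 no longer passed the threshold when centred (-0.93) or with library sizes scaled by TMM, the normalization of edgeR (-0.91), and Bcl2l1 came just short of it when centred. In each of these 5 genes the IL-2-REH library was the lowest of the 3 libraries at 0 and 90 min. Gzmb, a protease of cytotoxic granules, was likewise lowest with IL-2-REH, with 8.19 RPKM without cytokine, 4.58 with the partial agonist and 18.4 with IL-2 (log2 ratio of IL-2-REH to unstimulated -0.72). Cdk6, a kinase of the cell cycle, was lowest there too, with 4.69, 2.95 and 6.63 (log2 ratio -0.53).

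Bcl6, a transcriptional repressor known to be lowered by IL-2, was the only gene of the 24 that was higher by more than 1 with IL-2-REH than with IL-2. Its RPKM was 3.21 without cytokine, 6.23 with the partial agonist (log2 ratio 0.78, interval 0.82 to 1.09) and 0.898 with IL-2 at 90 min. At 4 hr it was 4.07 with the partial agonist and 0.777 with IL-2.

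**Figure D2:**
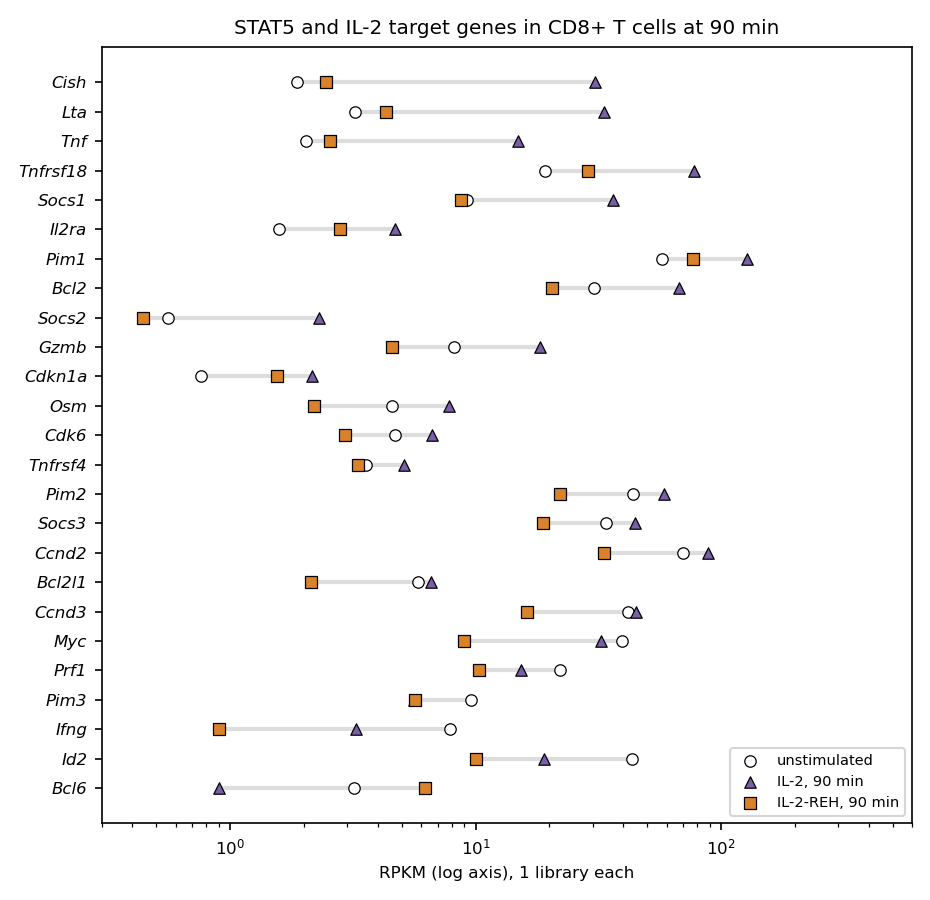
RPKM on a log axis for 25 genes, the 24 STAT5 and IL-2 targets that passed the filter and Tnf, in unstimulated CD8+ T cells (circles), after 90 min of IL-2 (triangles) and after 90 min of IL-2-REH (squares), 1 library each. For the genes at the top, such as Cish (1.87, 30.6 and 2.47) and Lta (3.21, 33.4 and 4.33), the squares lie near the circles, and for Myc (39.4, 32.3 and 8.98) the square lies far to the left.

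Of the 14 genes of IL-2 receptor chains, JAK kinases and STAT factors, 1 rose and 1 fell, near the shares over all genes (2.46% and 6.11%), with a median of 0.18. Stat5a rose from an RPKM of 14.5 to 30.6 (log2 ratio 1.02, interval 1.01 to 1.13), and Stat5b went from 28.1 to 56.3, just under the threshold at 0.98 and past it when centred (1.10) or with TMM-scaled library sizes (1.13). Jak3, the kinase of the common γ chain, fell from 26.9 to 10.1 (log2 ratio -1.33). The receptor chains themselves moved less. Il2rb, the β chain, went from 121.7 to 149.2 (log2 ratio 0.29), and Il2rg, the common γ chain, from 265.7 to 171.8 (-0.63). The RNA of Jak1 was at 197.3 and 217.8 (log2 ratio 0.14). With IL-2 at 90 min, Stat5a, Stat5b and Jak3 were at 25.1, 48.3 and 11.3. Both cytokines are set against the same unstimulated library, so a shared side of it is not separate evidence.

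The largest decreases were in AP-1 transcription factors, the dimers of FOS and JUN proteins that are made within minutes of a stimulus. Of the 11 measured members, 0 rose and 8 fell, and their median log2 ratio was -1.54. Fos fell from an RPKM of 115.6 to 3.20 (log2 ratio -4.80), that is, from 14870 reads to 417. Fosb fell from 48.4 to 2.42 (-3.85), Jun from 59.3 to 4.74 (-3.39) and Junb from 289.3 to 47.9 (-2.57). Jund, Batf, Maff and Mafk fell by log2 ratios between -1.61 and -1.02. The values with IL-2 at 90 min were 3.54 for Fos, 2.01 for Fosb, 7.71 for Jun and 56.3 for Junb. The single unstimulated library, which both comparisons share, thus stood far above those of both cytokines.

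Some other genes that respond early to stimuli were also high in the unstimulated library. Among 12 EGR, NR4A and related immediate early genes, Srf, Egr1, Csrnp1 and Per1 fell (log2 ratios -1.75, -1.66, -1.52 and -1.12), whereas Nr4a3 rose from an RPKM of 3.40 to 16.1 (1.96) and Egr2 from 2.2 to 6.64 (1.25). The members of this group therefore did not move in 1 direction, and when centred 2 rose and 3 fell. Of 11 DUSP and Sprouty genes, whose proteins switch off MAP kinases, 0 rose and 5 fell, namely Dusp1 (57.4 to 6.89 RPKM, log2 ratio -2.89), Dusp6 (-2.04), Dusp5 (-1.94), Spry2 (-1.78) and Dusp7 (-1.13). Ppp1r15a, which encodes a phosphatase subunit of the stress response that restores translation, fell from 121.4 to 18.1 (-2.68). Tnfaip3, which encodes the NF-κB inhibitor A20, fell from 259.6 to 60.8 (-2.07), and Zfp36, which promotes the decay of cytokine mRNA, from 86.5 to 34.3 (-1.31). Their lists did not fall as a whole. Of 19 NF-κB genes 2 rose and 3 fell, with a median of 0.31. Of 15 regulators of mRNA decay 1 rose and 1 fell, with a median of 0.49. Sik1, a kinase that cAMP induces, fell from 51.0 to 7.80 (-2.56), and of the 21 genes of its list 4 rose and 2 fell. The Krueppel-like factors Klf4 and Klf6 fell by log2 ratios of -1.78 and -1.02 (of 10 in their family, 2 fell, and 1 when centred).

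The promoters of Dusp1 and Ppp1r15a are shown because they are those among the genes below -2 that hold TGACGTCA, the palindromic site of CREB and ATF factors, in the same RefSeq windows. Capitals mark the match, which begins 143 bases before the start of Dusp1 (chr17:26508423-26508722, minus strand) and 12 bases before that of Ppp1r15a (chr7:45526219-45526518, minus strand).
Dusp1: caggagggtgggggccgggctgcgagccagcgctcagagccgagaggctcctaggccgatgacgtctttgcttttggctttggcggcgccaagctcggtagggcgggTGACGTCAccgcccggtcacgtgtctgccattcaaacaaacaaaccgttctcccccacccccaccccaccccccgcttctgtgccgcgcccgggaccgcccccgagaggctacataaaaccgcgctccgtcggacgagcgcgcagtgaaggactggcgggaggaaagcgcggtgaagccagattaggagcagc
Ppp1r15a: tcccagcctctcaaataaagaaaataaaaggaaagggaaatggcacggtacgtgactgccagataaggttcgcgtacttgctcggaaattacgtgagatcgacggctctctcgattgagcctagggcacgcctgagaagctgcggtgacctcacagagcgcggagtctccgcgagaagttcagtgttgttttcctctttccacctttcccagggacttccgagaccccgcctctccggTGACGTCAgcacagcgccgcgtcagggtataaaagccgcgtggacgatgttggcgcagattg
Windows were found for 26 of the 41 genes below -2, and these 2 hold the motif (7.69% of them). Of the genes above 2, 9 of 15 had a window, and 0 hold it. The share over all 27025 genes with a window is 2.03%, and over the compared genes it is 4% of 7430. The AP-1 motif TGANTCA, searched on both strands, is in the windows of Art2b, Cst7 and Tnfaip3 among the genes below -2 (11.5%). It is in the windows of 0 genes above 2. Its share is 8.97% over all genes with a window and 5.41% over the compared genes. A CArG box, the site of SRF, is in 0 of the windows of genes past 2 in either direction. The CArG share is 1.81% over all genes with a window and 1.47% over the compared genes. Genes without a window, and sequence outside the windows, were not searched. TTCNNNGAA is in the windows of Dennd4a, Il12rb2, Ppp2r3a and Tgif1, 4 of only 9 genes above 2 with a window (44.4%). Below -2 it is in those of Cd160, Ifng and Nkg7, 3 of 26 (11.5%). Its share is 9.55% over all genes with a window and 8.61% over the compared genes. Several of these genes have more than 1 window, which raises the chance of a match, and nothing follows from it about the factors.

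Of 18 measured genes of cytotoxic and effector function, 0 rose and 6 fell (5 when centred), with a median of -0.66. The ratios were below 0 in 14 of them and reached 0.50 in the others. The chemokine genes Ccl3 and Ccl4, which are neighbours whose annotations overlap, fell from 11.1 to 0.732 RPKM and from 12.8 to 1.34 (log2 ratios -2.81 and -2.57). Nkg7, which encodes a protein of cytotoxic granules, fell from 204.3 to 40.5 (-2.31), Ifng from 7.89 to 0.905 (-2.22), Xcl1, a chemokine for dendritic cells, from 21.5 to 5.09 (-1.88), and Prf1, which encodes perforin, from 21.98 to 10.3 (-1.02). Prf1 no longer passed the threshold when centred or with TMM-scaled library sizes (-0.90 in both). For each of these genes IL-2-REH was below IL-2 at 90 min, which gave 3.13, 3.99, 81.4, 3.25, 14.9 and 15.3 in the order named. Of 23 measured transcription factors of effector and memory T cells, 1 rose and 3 fell (2 when centred), with a median of -0.24. Id2, Tbx21 and Eomes fell (log2 ratios -2.01, -1.24 and -1.08).

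The T cell receptor signalling core, 29 genes, had a median of -0.68, with 2 above 1 and 7 below -1. Those that fell included Ptpn6, Cd8b1, Prkcq, Cd8a, Rasgrp1 and Cd3g. Cd8a went from an RPKM of 255.5 to 103.4 (log2 ratio -1.30), and Cd8b1, its partner chain, from 472.2 to 178.5 (-1.40). Those that rose were Cblb, which encodes a ubiquitin ligase that restrains T cell activation (19.5 to 64.9, log2 ratio 1.68), and the adaptor gene Sh2d2a (29.4 to 60.4, 1.01). In bulk RNA, fewer cells that express a gene and less RNA per cell cannot be told apart.

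Surface molecules moved in both directions. Of 20 genes known from activated T cells, 4 rose and 8 fell. Cd69, which retains lymphocytes in tissue, fell from 193.0 to 56.8 RPKM (log2 ratio -1.75), Ctla4, an inhibitory receptor, from 22.1 to 5.08 (-1.92), and Cd5, which tunes T cell receptor signals, from 62.7 to 19.1 (-1.66). The inhibitory receptors Tigit and Pdcd1 rose from 4.01 to 13.3 (1.52) and from 0.624 to 2.56 (1.13). Among 24 genes of quiescence and homing, 0 rose and 4 fell, among them Dapl1, Igfbp4 and Txnip (2 fell when centred). Dapl1, a gene of naive CD8+ T cells, went from 167.3 to 21.8 (-2.89). Of 7 RGS genes, which limit signalling from G proteins, 0 rose and Rgs14, Rgs1, Rgs3 and Rgs2 fell. Rgs1 differed by cytokine, with 32.8 RPKM without cytokine, 10.9 with the partial agonist and 83.5 with IL-2.

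Dtx1, which encodes a ubiquitin ligase of the Notch pathway, fell from an RPKM of 50.6 to 3.50 (log2 ratio -3.52). Among the 24 Notch pathway genes measured, Dtx3 also fell (-1.13), Nrarp, a feedback inhibitor of Notch, rose from 1.73 to 6.96 (1.54), and the median was 0.02. The other genes among the 15 lowest were Slc14a1, which encodes a urea transporter (15.1 to 0.888 RPKM, log2 ratio -3.09), Hsd11b1, an enzyme that activates glucocorticoids (44.7 to 4.996, -2.93), Sept9, a septin of the cytoskeleton (80.6 to 10.01, -2.89), Slc16a5, a monocarboxylate transporter (9.24 to 0.633, -2.65), and Hvcn1, a proton channel (36.5 to 5.30, -2.57). The annotations of Slc14a1, Sept9, Slc16a5 and Hvcn1 overlap those of other genes, and since use of strand in counting is not given in the sources used here, part of their reads is uncertain.

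Interferon-stimulated genes tended to be lower, with 1 of 37 above 1, 11 below -1 and a median of -0.58. Zbp1, Mx1, Usp18 and Ifit1 fell by log2 ratios between -1.80 and -1.46, and Irgm2 rose (1.19). Glycolysis genes had a median of -0.64 over 19 genes, with 0 above 1 and 4 below -1 (Eno1, Slc2a3, Pdk1 and Tpi1). Of the 81 cytosolic ribosomal protein genes, 0 passed the threshold in either direction. Their median was -0.35 (-0.23 when centred) with a range from -0.53 to 0.02, and their median exon length was 703 bases. In the 1003 genes of all kinds with the shortest transcripts, of median length 651 bases, the median ratio was -0.40. The 78 nuclear genes of oxidative phosphorylation had a median of -0.45 and the 76 mitochondrial ribosomal proteins -0.27, and 1 and 0 of them passed, in the direction of a decrease. Genes of ribosome biogenesis (61 measured, 3 fell, median -0.28), MHC class I presentation (21, 2 fell, -0.41), the proteasome (37, 2 fell, -0.12), cholesterol synthesis (24, 1 fell, -0.12), heat shock (24, 1 fell, 0.00), amino acid stress (22, 4 fell, -0.34), the GIMAP family (8, 2 fell, -0.56) and histones (6, 0 fell, -0.33) had 0 members above 1. When centred, 1 member each of the heat shock, cholesterol and amino acid stress lists was above 1, and 0 members of the ribosome biogenesis, MHC class I, proteasome, cholesterol and oxidative phosphorylation lists were below -1.

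The genes that rose most included several of the TGF-β pathway. Of 21 measured, 6 rose and 2 fell, with a median of 0.59, the highest of the lists examined for function. The median exon length of these 21 genes was 4788 bases, against 2687 for all genes compared. In the genes of all kinds with 4484 to 5781 bases, the median ratio was 0.07. The part of length in the list's median was not tested. Pmepa1, which encodes a feedback inhibitor of TGF-β signalling, rose from an RPKM of 2.08 to 19.2 (log2 ratio 2.71), and the read ratio had an interval of 3.08 to 3.33. Skil and Ski, repressors of SMAD proteins, rose from 11.2 to 59.2 (2.30) and from 20.1 to 52.1 (1.33). Tgif1, another repressor of SMAD targets, rose from 25.3 to 112.0 (2.1), Smurf2, a ubiquitin ligase of the pathway, from 9.92 to 27.5 (1.38), and Smad5, a signal transducer of BMP receptors, from 4.68 to 10.8 (1.05). The members that rose are mainly inhibitors of the pathway. Whether this differs from the make-up of the 21 measured members was not tested. Tgfbr3, a coreceptor, and Nedd9, a scaffold, fell (-1.16 and -1.01), and when centred 6 rose and 1 fell. With IL-2 at 90 min, Pmepa1, Skil and Tgif1 were at 24.7, 56.2 and 81.1. The unstimulated library is shared and the genes were chosen by their ratio to it, so these values are only set side by side.

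Crem, which encodes a transcription factor that answers cAMP, rose from 2.12 to 18.5 RPKM (log2 ratio 2.64), and the cAMP phosphodiesterases Pde3b, Pde4d and Pde8a, which break cAMP down, rose as well (1.33, 1.33 and 1.30). Of the 21 genes of that list, 4 rose and 2 fell, the latter being Sik1 and the adenylate cyclase Adcy7 (-1.25). Ramp3, a chaperone of G protein-coupled receptors, rose from 2.48 to 21.3 RPKM (2.68, interval of the read ratio 2.88 to 3.33), and its relative Ramp1 fell from 6.36 to 0.907 (-1.95). Ramp3 was at 18.8 with IL-2 at 90 min, and at 4 hr it was back at 2.52 with the partial agonist and 2.21 with IL-2. Gpr183, which guides lymphocytes by oxysterols, fell from 38.5 to 9.41 (-1.93), as did the chemokine receptor genes Ccr9 and Ccr2. Of the 24 genes of that receptor list, 1 rose and 5 fell, and 3 fell when centred.

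Receptors of other cytokines were found among the genes that rose and among those that fell. Il12rb2, the signalling chain of the IL-12 receptor, went from an RPKM of 1.45 to 8.92 (log2 ratio 2.02), while its partner Il12rb1 fell from 4.95 to 0.610 (-1.89). Ifngr1 and Ifngr2, the chains of the interferon-γ receptor, rose from 87.5 to 236.0 (1.42) and from 12.8 to 26.9 (1.02). Of the 18 genes of that list, 3 rose and 3 fell (2 when centred), with a median of -0.36. Of 14 receptors of the TNF superfamily, Tnfrsf1b, Tnfrsf23 and Tnfrsf26 rose (1.07, 1.09 and 1.19) and 0 fell, whereas of 7 ligands 0 rose and Tnfsf14, Tnfsf10 and Tnfsf8 fell (-1.60, -1.33 and -1.19). Tnfsf8, the ligand of CD30, was at 16.1 without cytokine, 6.51 with the partial agonist and 44.3 with IL-2 at 90 min.

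Zeb1, which encodes a repressor of transcription, rose from 10.7 to 55.4 RPKM (log2 ratio 2.27). In the NF-κB list of 19 genes, Nfkb2 and Relb, the subunits of the alternative pathway, rose (1.52 and 1.15), and Tnfaip3, Nfkbiz and Malt1 fell. Bcl2l11, which encodes the death factor BIM, rose from 10.5 to 36.5 (1.71), and it was at 27.8 with IL-2. Of 13 genes of the BCL2 family, 1 rose and 1 fell (0 when centred), with a median of -0.17. Mxd4 and Mxi1, which compete with MYC for its partner MAX, rose (1.62 and 1.17), and Myc fell. Of the 9 measured genes of this network 2 rose and 1 fell, with a median of 0.31. The 15 highest also included Ppp2r3a, a subunit of protein phosphatase 2A (0.388 to 6.08 RPKM, log2 ratio 2.35), Kcnip2, a potassium channel protein (0.618 to 7.21, 2.34), Heatr5a (2.89 to 18.7, 2.34), Kdm2b, a histone demethylase (6.78 to 38.2, 2.33), Spsb1 (1.22 to 9.96, 2.31), Dennd4a (6.67 to 34.8, 2.22), and Arhgap31, a regulator of small GTPases (3.94 to 20.8, 2.14). Other annotated genes overlap Ramp3, Crem, Zeb1, Kdm2b, Spsb1, Ppp2r3a, Dennd4a, Arhgap31 and Il12rb2, so that part of their reads is likewise uncertain.

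The values of the extreme genes at the other time can be set beside these, although every ratio would share the unstimulated library. Over the 15 genes above 2, the median RPKM was 2.48 without cytokine. At 90 min it was 19.2 for IL-2-REH and 18.8 for IL-2, and at 4 hr 6.16 and 7.03. Over the 41 genes below -2, it was 26.6 without cytokine, 4.15 and 5.45 at 90 min, and 4.26 and 6.54 at 4 hr, in the same order of cytokines. The choice of genes fixes the first and the second value of each series, and the rest describe the other libraries. Kcnip2 and Heatr5a were still high with IL-2-REH at 4 hr (6.16 and 16.7), and Spsb1 was back at 1.25.

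**Figure D3:**
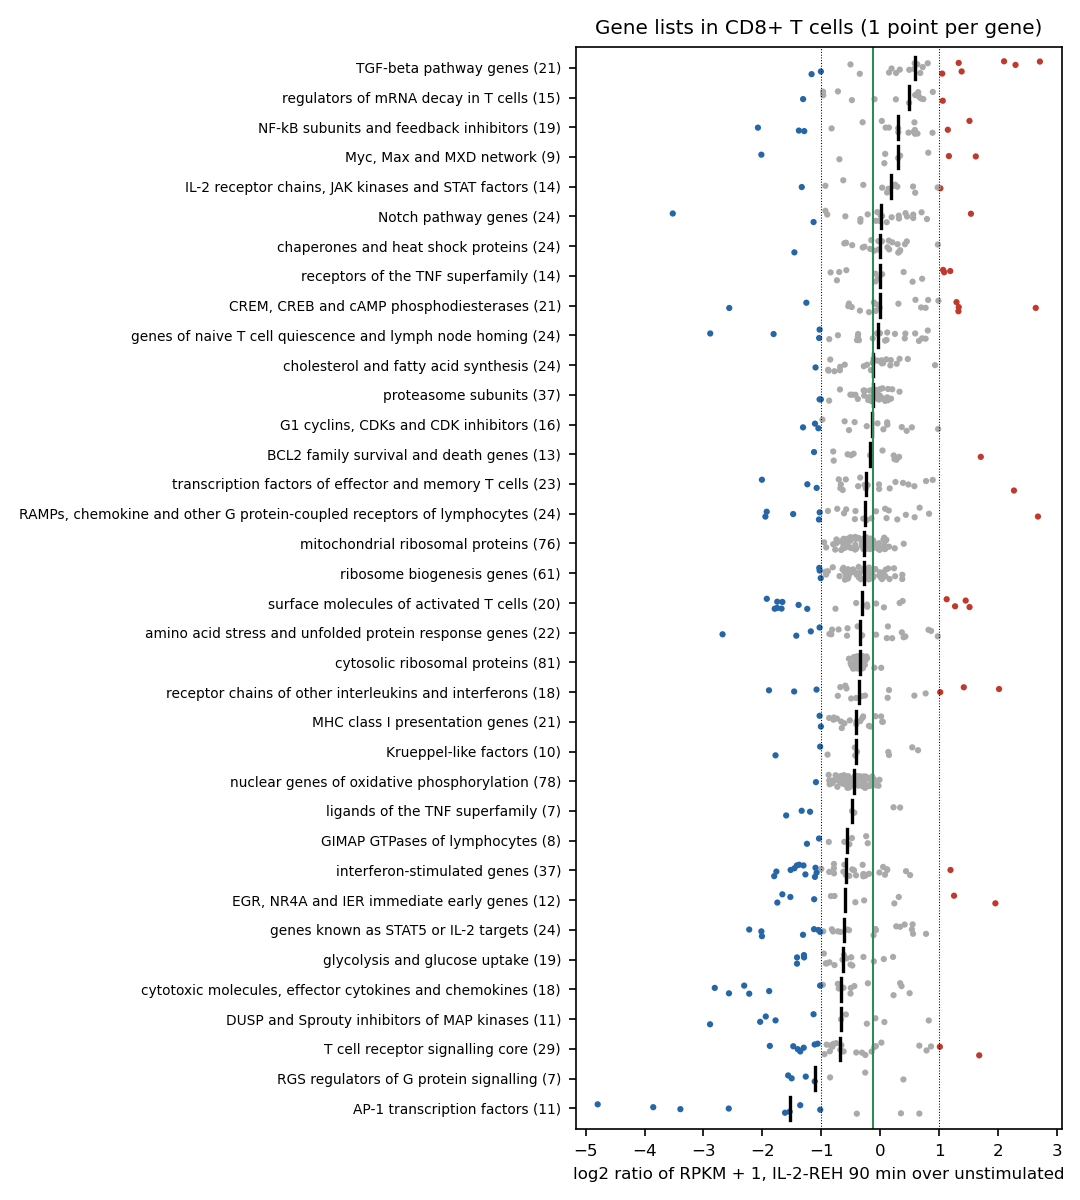
Log2 ratio of RPKM + 1 (IL-2-REH 90 min over unstimulated, 1 library each) for every measured gene of 36 lists, 1 point per gene, with the list's median as a black bar and the number of genes in parentheses. The green line is the median of all genes (-0.12), the dotted lines mark 1 and -1, and points past them are red or blue. AP-1 factors have the lowest median (-1.54) and TGF-β pathway genes the highest (0.59).

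Tregs given IL-2-REH for 90 min offer the same comparison in other cells with their own unstimulated libraries, in 3 same-numbered pairs. Over the 247 genes that rose in CD8+ T cells, the median log2 ratio was 0.08 in pair 1, 0.83 in pair 2 and 0.99 in pair 3. Over the 612 that fell, it was 0.04, -0.95 and -0.98, while the medians of all genes were 0.16, -0.29 and -0.17. Pairs 2 and 3 therefore moved in the direction of the CD8+ pair, and pair 1 stayed near 0. In both pairs 2 and 3, 99 of the 247 genes were above 1 and 0 below -1 (40.1% and 0%), against 3.24% and 5.39% of all genes. Of the 612, 238 were below -1 and 2 above 1 in both (38.9% and 0.327%). In all 3 pairs, 0 of the 247 were above 1 and 0 of the 612 below -1, and of all genes 4 (0.0399%) and 1 (0.00998%) were.

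The pairs differed in their unstimulated libraries for the genes with the highest ratios. Ramp3 had an RPKM of 218.7, 2.91 and 2.3 in unstimulated Tregs of replicates 1, 2 and 3, and 239.0, 141.2 and 114.7 with IL-2-REH. Crem was at 229.1, 7.01 and 7.34 without cytokine and 196.3, 170.9 and 154.1 with it. Replicate 1 was thus already high without cytokine, and the others reached similar levels only with it. The Treg log2 ratios for Pmepa1 were -0.27, 2.18 and 2.81, for Skil 0.09, 2.21 and 1.87, for Zeb1 0.30, 2.55 and 2.87, and for Dtx1 -0.87, -2.61 and -2.68.

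Some genes moved otherwise in Tregs, although with 1 CD8+ library whether the cell types differ cannot be tested. Cish was at 54.7, 65.5 and 54.0 RPKM in unstimulated Tregs and at 127.7, 116.7 and 97.0 with IL-2-REH, so its log2 ratio was 0.96 ± 0.22 (SD, n = 3 pairs), whereas in CD8+ T cells it was 0.27. Myc had log2 ratios of 0.87, 0.59 and 0.49 in the Treg pairs and -2.02 in CD8+ T cells, and Pim2 0.73, 0.92 and 0.86 against -0.97. In these 3 genes every Treg pair lay above the CD8+ value. Fosb, with -0.94, 2.12 and -0.24, had no common direction in Tregs, and Fos was lower in each pair (-1.57, -0.50 and -2.22).

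**Figure D4:**
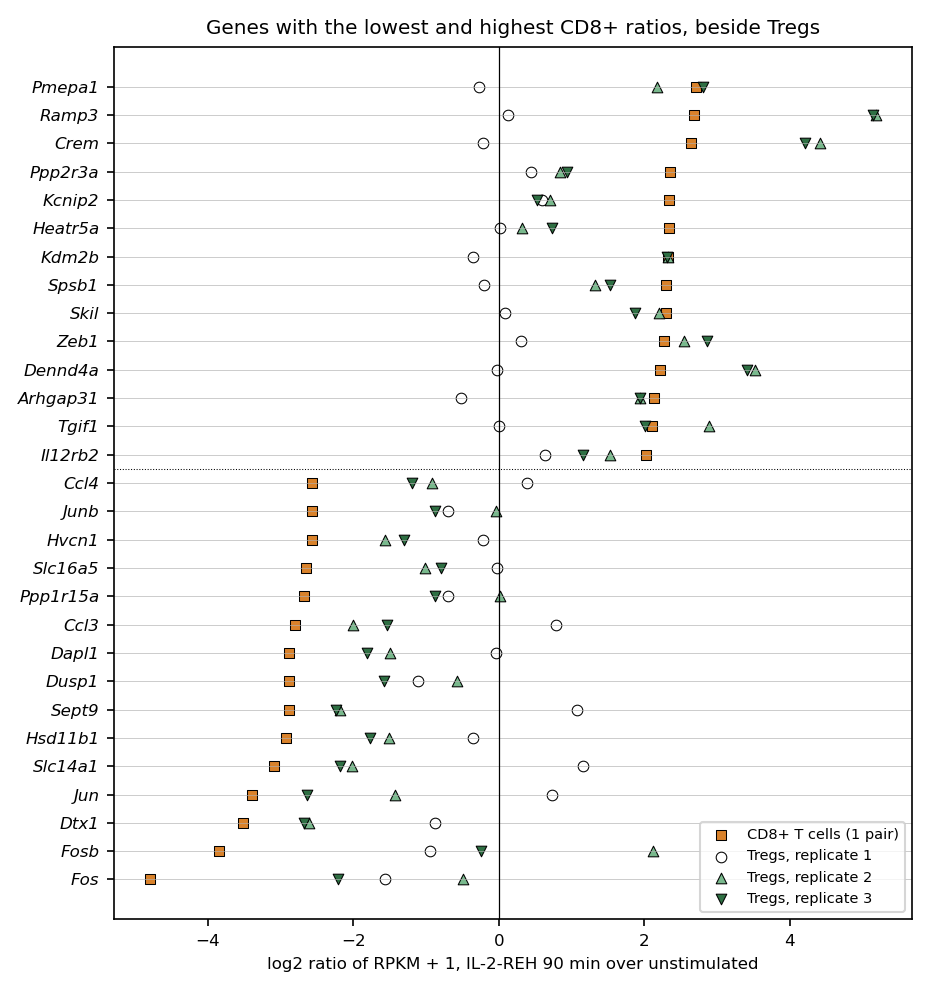
Log2 ratio of RPKM + 1 (IL-2-REH 90 min over unstimulated) for genes among the 15 lowest and 15 highest of the CD8+ comparison (squares, 1 pair of libraries) and for the same genes in the 3 same-numbered Treg pairs. Replicate 1 (open circles) stays close to 0 for the upper genes, such as Ramp3 (0.13), where replicates 2 and 3 reach 5.19 and 5.15.

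The CD8+ label was checked against markers. The 6 markers of CD8+ T cells found in the files, Cd8a, Cd8b1, Cd3d, Cd3e, Cd3g and Thy1, summed to an RPKM of 1832 without cytokine and 820.9 with IL-2-REH, and the latter was the lowest of the 5 CD8+ libraries. Their log2 ratios ran from -1.46 for Thy1 to -0.62 for Cd3d. Both libraries were therefore rich in these markers, in unequal amounts. Foxp3 and Cd4, the markers of Tregs and of CD4+ T cells, were at 0.518 and 0.482 RPKM and at 1.33 and 0.597, and did not pass the filter. Of the 6 markers in their list 3 passed, with a median log2 ratio of 0.56. These were Ikzf2 (0.89), Il2ra (0.56) and Ctla4 (-1.92), all of which CD8+ T cells can also make.

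The summed markers of other cells were far below those of CD8+ T cells and also lower in the IL-2-REH library. The sums were 13.2 and 3.94 RPKM for 8 B cell markers, 45.2 and 23.3 for 12 of macrophages, 44.3 and 21.7 for 7 of NK cells, 52.2 and 31.1 for 10 of dendritic cells, 18.7 and 9.93 for 10 of erythroid cells and platelets, and 2.77 and 2.08 for 8 of neutrophils. Cd79b, a receptor chain of B cells, was at 8.38 and 2.1, Lyz2, the lysozyme of myeloid cells, at 18.2 and 11.5, and Ncr1, a receptor of NK cells, at 4.00 and 0.988. The median of all genes compared was 8.95 and 8.34, so Lyz2 was above it in both libraries. Some NK markers are also made by CD8+ T cells. Their part in the decreases, such as those of Nkg7, Ccl3, Ccl4 and Ifng, was not tested.

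The change also moved with exon length. The genes were divided into 10 bins by length. In the bin with the shortest transcripts (20 to 973 bases), the median log2 ratio was -0.40, with 30 genes above 1 and 115 below -1, and in the bin with the longest (5783 bases and more) it was 0.17, with 57 and 22. The genes that rose had a median exon length of 3387 bases and those that fell 2086, against 2687 for all. The other CD8+ libraries followed the same order relative to the unstimulated one (from -0.27 to 0.21 with IL-2 at 90 min), and Treg pairs 2 and 3 were also higher in the longest bin (-0.13 and 0.04) than in the shortest (-0.33 and -0.31), whereas pair 1 was at 0.16 and 0.14. The part of length in the results was not tested. Transcripts under 200 bases, which include microRNA and small nucleolar RNA genes that often lie within other genes, made up 26 of the 247 genes that rose (10.5%) and 35 of the 612 that fell (5.72%), against 243 of all 10021 genes (2.42%), and their values are uncertain.

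**Figure D5:**
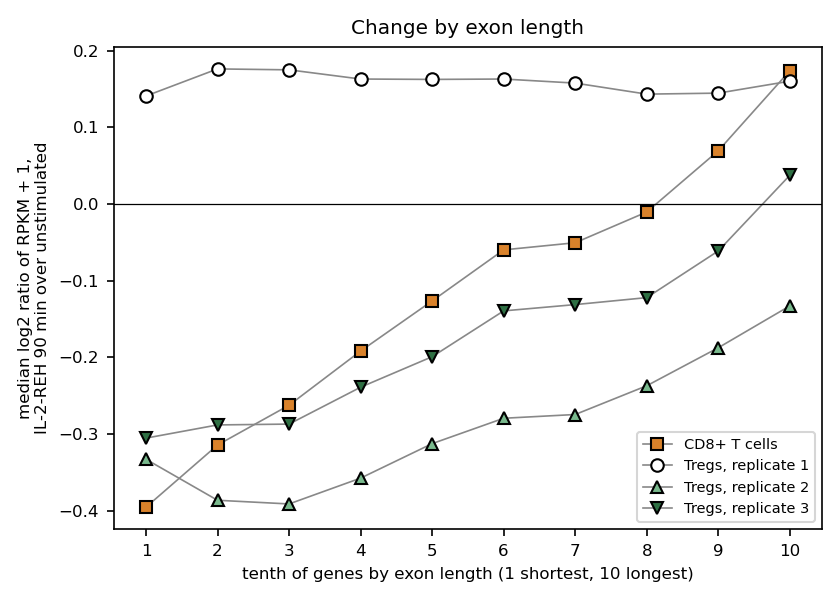
Median log2 ratio of RPKM + 1 (IL-2-REH 90 min over unstimulated) in 10 bins of the 10021 genes by exon length, in CD8+ T cells (squares) and in the 3 same-numbered Treg pairs. In CD8+ T cells it climbs from -0.40 to 0.17, and in Treg replicate 1 it stays between 0.14 and 0.18.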

How the data were processed

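RNA from mouse T cells was sequenced on poly(A)-selected libraries as 50 bp single-end reads. The authors mapped the reads to mm10 with Bowtie2 2.2.6 and TopHat2 2.1.1, retained unique alignments only and counted reads on exons. The deposited files list 31682 transcripts with the count, not normalized, and the RPKM, which is scaled to exon length and mapped reads. SAMtools 0.1.8, bedtools 2.25.0 and edgeR are also listed in the submitters' processing notes. Whether strand was used in counting is not given in the sources used here.

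Here, groups came from the sample titles. Of the 23992 symbols, 4343 have several transcripts, and each symbol was represented by the transcript with the most reads over the 20 libraries. Log2 ratios of RPKM + 1 (pseudocount 1) were computed for the 10021 genes whose RPKM averaged 1 or more in the 5 CD8+ libraries, which held 38201668 to 45189835 reads on genes. CD8+ groups have 1 library each, so no test was made and no p-value is given. Exact Clopper-Pearson intervals (95%) of read ratios cover counting error only. Reads of PCR-amplified libraries without molecular identifiers are not independent molecules, and 3 reads on a 2 kb transcript correspond to an RPKM of about 0.024. Treg libraries were compared by same-numbered pair, and their spread was pooled over 5 groups (10 residual degrees of freedom). The arithmetic was tested on simulated data.

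The genes named in full are the 15 highest and 15 lowest ratios, the markers, and members of the 46 gene lists past a log2 ratio of 1. Added to them are all listed receptor, JAK and STAT genes, STAT5 targets and genes the paper names for CD8+ T cells or IL-2. Within these, examples are given in the text, and some genes that met the rule are not reported here. The comparison and the lists were chosen with earlier results of these data known. Gls2, a gene named in the paper, did not pass the filter and is not described.

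Alternatives were a pseudocount of 0.1, centring on the median, library sizes scaled by TMM (edgeR 4.0.16, R 4.3.3), a minimum mean RPKM of 5, the filter over the 2 libraries compared, no filter, the longest transcript, and Treg means without each replicate. Promoter windows and gene positions came from RefSeq for GRCm38.p6. Python 3.11.15, numpy 2.4.6, pandas 2.3.3, scipy 1.17.1 and matplotlib 3.10.9 were used.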

Additional observations from a re-analysis of the deposited data

How the results depend on the processing

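The number of genes past a log2 ratio of 1 (859) was 1363 with a pseudocount of 0.1 and 566 with a minimum mean RPKM of 5, which left fewer genes (6804), and between 796 and 948 under the other alternatives. The number past 2 (56) was 156 with a pseudocount of 0.1 and between 45 and 75 otherwise. Centring split the genes past 1 into 367 higher and 429 lower, and TMM scaling into 439 and 509, in place of 247 and 612. Of the 39 genes past 1 among 68 named in full, 36 kept their side of the threshold after centring (not Bcl2l1, Ccnd2 and Prf1), 37 with TMM scaling (not Ccnd2 and Prf1) and all 39 with the pseudocount of 0.1, the longest transcript or no filter. No gene past 1 changed sign. The median of all genes was 0.01 with TMM scaling. The median Treg log2 ratio of the genes that rose in CD8+ T cells (0.64 over 3 pairs) was between 0.49 and 0.90 without replicate 1, 2 or 3, and that of the genes that fell (-0.62) between -0.97 and -0.44. Without replicate 1 these were 0.90 and -0.97. No paired analysis was possible because each CD8+ group has 1 library and the comparison comes from no test.

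Counting error was small for most genes, with a median half-width of the interval of 0.11 on the log2 scale, but the spread between CD8+ cultures or animals is not known at any depth. Genes near an RPKM of 1, such as Socs2, have ratios shrunk by the pseudocount.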
